A study of Homo sapiens with 8 samples.

Results

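The 10 genes described here encode the adhesion molecules by which endothelium captures and holds leukocytes, together with the sialomucins that coat its luminal face. They were chosen by name, as the rows of the deposited table whose gene name is EMCN, CD34, PODXL, ICAM1, ICAM2, VCAM1, SELE, SELP, MCAM or ALCAM, which gave 10 of 30386 genes. RNA sequencing compared 4 samples of endothelial cells (iEC) with 4 samples of retinal endothelial cells (iREC), each with the letters C, D, E and F. Both groups came from WTC-TJP1, 1 established line of human induced pluripotent stem cells, and were analysed at passage 1. The labels name no treatment or cytokine for either group, give both the same cell type, and do not say whether the letters mark separate cultures. The p-values below therefore measure the spread between these samples, which may be technical, and speak of this 1 line only.

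Leukocytes leave the blood in steps. Selectins on the endothelium catch passing cells and let them roll, immunoglobulin-type ligands such as the ICAMs and VCAM1 then hold them through their integrins, and junction proteins let them cross. Sialomucins are long, heavily glycosylated and negatively charged proteins. On most endothelium they keep cells apart. In resting endothelium ICAM2 and the sialomucins are made constitutively, whereas SELE, VCAM1 and much of ICAM1 are induced by inflammatory cytokines through the transcription factor NF-kappaB. Retinal vessels form the inner blood-retinal barrier, and leukocyte arrest on them is studied in diabetic retinopathy and uveitis.

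Since that induction acts at the promoter, the start-site regions of both endothelial selectins, VCAM1 and EMCN are shown, as genes that differ in how they are switched on. RefSeq's promoter table (build GRCh38.p14) matched 8 of the 10 genes; PODXL and ICAM2 were not matched. Each line runs 5′ to 3′ on the gene's own strand from 250 bases before the RefSeq start, and stops where an exon of GENCODE release 29 begins. Capitals mark a match to the NF-kappaB consensus in SELE and VCAM1 and to the ETS core AGGAAG in EMCN. The SELE stretch is chr1:169734124-169734329 (minus strand), SELP is chr1:169630194-169630374 (minus strand), VCAM1 is chr1:100719492-100719741 (plus strand) and EMCN is chr4:100518094-100518272 (minus strand).
SELE: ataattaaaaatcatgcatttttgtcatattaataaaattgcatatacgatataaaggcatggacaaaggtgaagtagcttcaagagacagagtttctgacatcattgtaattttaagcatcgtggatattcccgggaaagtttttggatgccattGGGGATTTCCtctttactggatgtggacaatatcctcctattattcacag
SELP: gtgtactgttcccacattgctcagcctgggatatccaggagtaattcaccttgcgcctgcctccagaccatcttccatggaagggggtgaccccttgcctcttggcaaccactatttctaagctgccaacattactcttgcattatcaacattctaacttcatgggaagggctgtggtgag
VCAM1: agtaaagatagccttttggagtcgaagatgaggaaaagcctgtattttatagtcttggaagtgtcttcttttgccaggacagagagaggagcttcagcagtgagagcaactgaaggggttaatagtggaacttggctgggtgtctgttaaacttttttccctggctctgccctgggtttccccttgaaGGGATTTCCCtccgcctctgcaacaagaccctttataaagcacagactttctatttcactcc
EMCN: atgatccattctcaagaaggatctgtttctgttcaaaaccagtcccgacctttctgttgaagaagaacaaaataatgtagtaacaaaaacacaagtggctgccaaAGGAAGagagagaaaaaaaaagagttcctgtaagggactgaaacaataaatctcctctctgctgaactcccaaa
Both strands of the 250 bases before each start were searched. SELE holds GGGGATTTCC between 94 and 85 bases before its start, a match to the NF-kappaB consensus. VCAM1 holds GGGATTTCCC between 62 and 53 bases before its start, a match to the consensus on both strands. Among the 35116 promoters of the table, 9.96% hold the consensus and 28.7% the ETS core. In SELP and EMCN these windows hold no match to the NF-kappaB letters. Each has 1 ETS core, which in SELP lies between 53 and 48 bases before the start and so past the stretch shown. SELE also has an ETS core, between 46 and 41 bases before its start, which runs past the end of its stretch. VCAM1 has no match to that core. These matches describe letters only, and a binding site spelled with other letters would be missed.

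Library totals lay between 14877502 and 16971865 counts for iEC and between 13739364 and 15987839 for iREC. There, 3 counts, the floor of detection used here, stand for 0.177 to 0.218 CPM (counts scaled to a common library total). Such floors cover counting error only. All 12 genes of an endothelial marker list (PECAM1, CDH5, KDR, TEK and others) had counts in every sample. Their summed level ran from 7690 to 9820 CPM in iEC and from 4570 CPM in iREC F to 10000 CPM in iREC E. iREC F stood apart in other lists too. The sum of 8 epithelial genes was 4920 CPM there against 302 to 1120 in the other iREC samples and 391 to 1180 in iEC. The sum of 12 mural and mesenchymal genes was 5550 CPM there against 1280 to 2040 in the other iREC samples and 232 to 449 in iEC. In bulk RNA, fewer cells of a type and less RNA per cell cannot be told apart.

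Of the 10 genes, 4 were higher in iREC (EMCN, CD34, SELE and SELP), 2 were lower (ICAM2 and MCAM) and 4 did not pass the test (PODXL, ICAM1, VCAM1 and ALCAM). The test was edgeR's quasi-likelihood F-test over all 15330 genes that passed the filter on low counts, with a Benjamini-Hochberg adjusted p under 0.05 as the threshold. All 10 genes passed that filter, though SELE, SELP and VCAM1 did so only through iREC. Among all tested genes 25.0% were called, 13.2% as higher and 11.7% as lower in iREC. The median log2 fold change was 0.81 over the 10 genes and 0.02 over all tested genes. The former falls in a gap between ALCAM (-0.12) and VCAM1 (1.74), with no gene near it. Values of the 10 genes ran from -1.43 (PODXL) to 7.39 (SELP), so that median does not stand for a common shift. The levels of the groups did not overlap in 6 of the 10 genes, the ones called, against 29.1% of all tested genes.

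**Figure D1:**
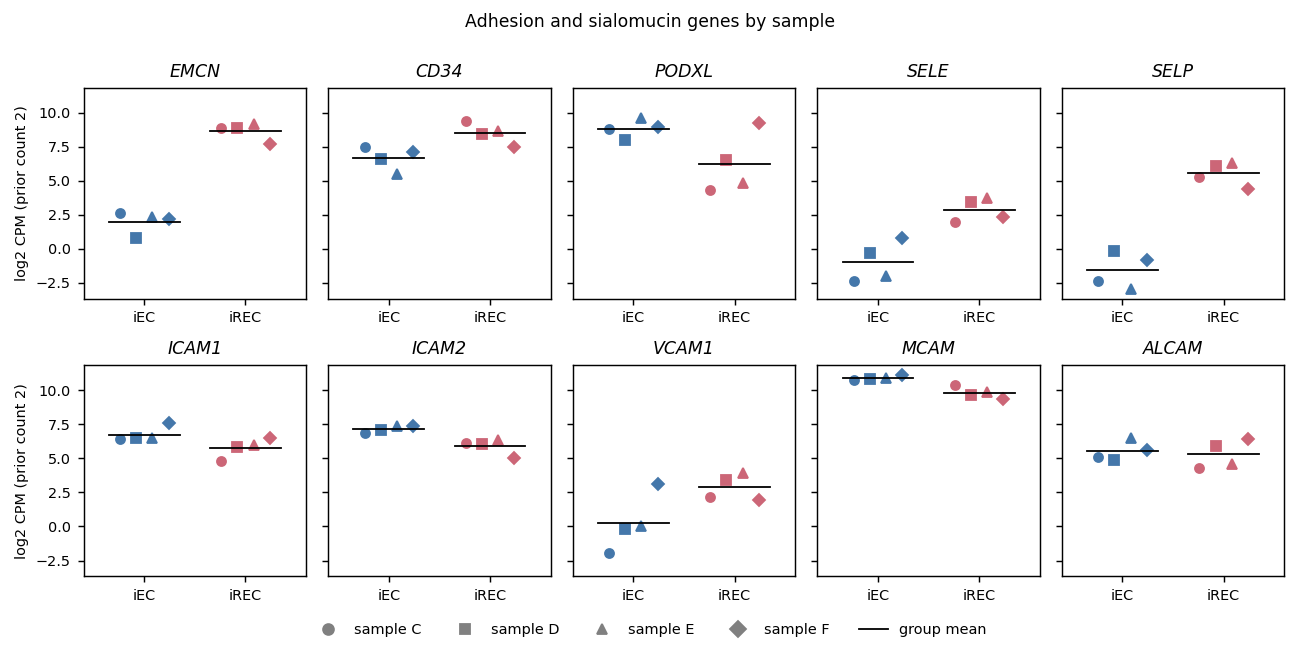
Level of each gene (vertical axis, log2 CPM with a prior count of 2) in the 4 iEC and 4 iREC samples; symbols give the sample letter and black lines the group means. EMCN and SELP part the groups widely, while PODXL in iREC F (592 CPM) lies among the iEC samples.

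EMCN, CD34 and PODXL are the sialomucins, and 2 of the 3 were higher in iREC. EMCN (ENSG00000164035, chromosome 4, 100395341 to 100880126, minus strand) encodes endomucin, a sialomucin of capillary and venous endothelium that hinders leukocyte contact. Listed for samples C to F, its level was 6.03, 1.58, 4.84 and 4.36 CPM in iEC and 473, 470, 572 and 209 CPM in iREC. The same order of letters is kept below. Every iREC sample was far above every iEC sample, and iREC F was the lowest of its group. The log2 fold change was 6.68 ± 0.49 (SE), a 103-fold difference (edgeR adjusted p 4.11e-05). This call held under all 16 alternatives tried, with log2 fold changes from 6.40 to 6.91. GENCODE release 29 gives EMCN a span of 484.8 kb, and the genes that lie in it share no exonic base (0) with it.

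CD34 (ENSG00000174059, chromosome 1, 207880972 to 207911402, minus strand), a marker of blood progenitors and of endothelial tip cells, was also higher in iREC. It had 177.1, 95.5, 44.7 and 136 CPM in iEC and 674, 354, 412 and 177.2 CPM in iREC. The groups only just failed to overlap, since iREC F met iEC C. Here the log2 fold change was 1.84 ± 0.47 (SE), a 3.57-fold difference (edgeR adjusted p 0.0199). The call held in all 16 alternatives, with adjusted p up to 0.0483. Of 8 genes that mark blood progenitors, MYB was at most 0.442 CPM in iEC and 2.81 to 7.31 CPM in iREC, while RUNX1 was 24.2 to 46.3 CPM in iEC and 13.9 to 16.2 CPM in iREC. The summed level of those 8 genes ran from 67.4 to 92.9 CPM in iEC and from 53.6 to 100 CPM in iREC, and GATA1 had no count in any iREC sample. Their part in the CD34 difference was not tested.

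PODXL (ENSG00000128567, chromosome 7, 131500262 to 131558217, minus strand) encodes podocalyxin, a CD34 relative that opens vessel lumens and is also abundant on podocytes and pluripotent stem cells. Its level was 435, 250.5, 789 and 503 CPM in iEC. In iREC C, D and E it was 19.7, 90.9 and 28.96 CPM, below every iEC sample, but in iREC F it was 592 CPM. The spread within iREC was thus 30.0-fold, the widest of the 10 genes there. PODXL did not pass the test over all samples, with -1.43 ± 0.96 (SE) as its log2 fold change and an edgeR adjusted p of 0.309. Without iREC F the log2 fold change was -3.41 and the edgeR adjusted p 0.00403; under the other 15 alternatives it was not called.

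Per length, the make-up of the sialomucin message differed between the groups. The 3 genes together gave 46.3 to 119 FPKM (the length-scaled level the authors deposited) in iEC and 138 to 164 FPKM in iREC. EMCN made up 0.639% to 1.38% of that sum in iEC, and 54.3%, 63.5%, 69.1% and 27.4% in iREC. PODXL made up 75.7% to 95.2% in iEC, 1.72% to 9.37% in iREC C, D and E, and 59.3% in iREC F. The share of CD34 was 4.02% to 23.0% in iEC against 13.2% to 44.0% in iREC. By these shares PODXL led in all iEC samples and in iREC F, and EMCN led in the other iREC samples.

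**Figure D2:**
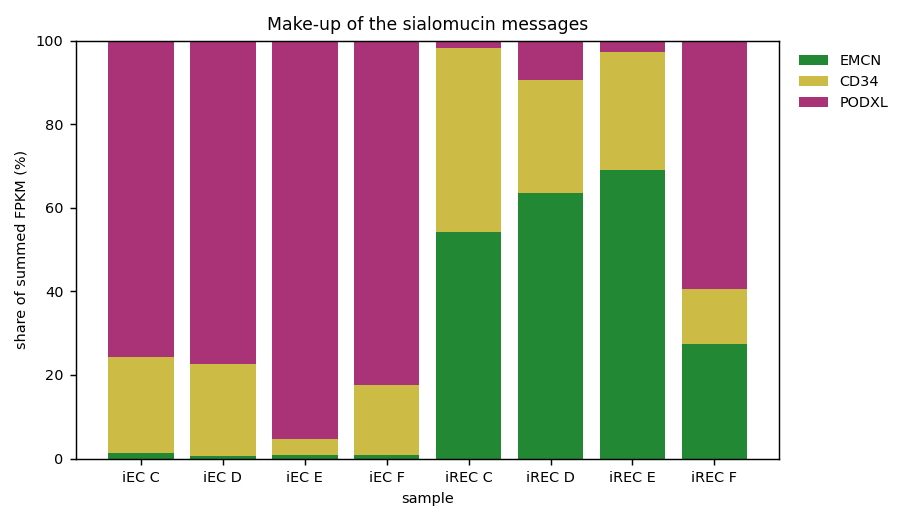
Share (vertical axis, %) of EMCN, CD34 and PODXL in their summed FPKM, 1 bar per sample. PODXL fills at least 75.7% of each iEC bar, and EMCN at least 54.3% of each iREC bar except iREC F, where PODXL has 59.3%.

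PODXL and ALCAM had the same order of samples within iREC. ALCAM (ENSG00000170017, chromosome 3, 105366909 to 105576900, plus strand) encodes CD166, an adhesion protein of endothelial, mesenchymal and epithelial cells that binds CD6 on T cells. It was 33.9, 29.2, 91.2 and 48.7 CPM in iEC and 19.4, 59.3, 24.1 and 83.5 CPM in iREC. The groups overlapped widely and no difference was called, at -0.12 ± 0.51 (SE) on the log2 scale and an edgeR adjusted p of 0.886. Among iREC samples PODXL, ALCAM, the epithelial sum and the pluripotent sum were all lowest in C and highest in F, with E below D. The mural sum was highest in F too but lowest in E, at 1280 CPM against 1430 CPM in C. The epithelial sum was 302, 1120, 424 and 4920 CPM in iREC, with KRT8 alone at 98.4 CPM in iREC C, 194 CPM in iREC E and 3010 CPM in iREC F. The summed level of 8 pluripotency genes was 54.3, 183, 82.1 and 517 CPM in the same samples, of which LIN28A held 20.5, 146, 53.5 and 480 CPM. DPPA4, of the same list, was instead highest in C, at 32.4, 24.6, 22.6 and 22.4 CPM. The defining pluripotency genes were near 0, with NANOG at most 0.122 CPM, SOX2 at most 0.392 CPM and POU5F1 at most 1.16 CPM in any sample. CDH1, which defines epithelium, was 0 in iREC C, 5.12 and 1.16 CPM in D and E, and 81.3 CPM in F. Within iEC, PODXL and ALCAM were both lowest in D and highest in E, whereas the epithelial sum was highest in F. The part of these cell types in the PODXL and ALCAM levels was not tested.

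**Figure D3:**
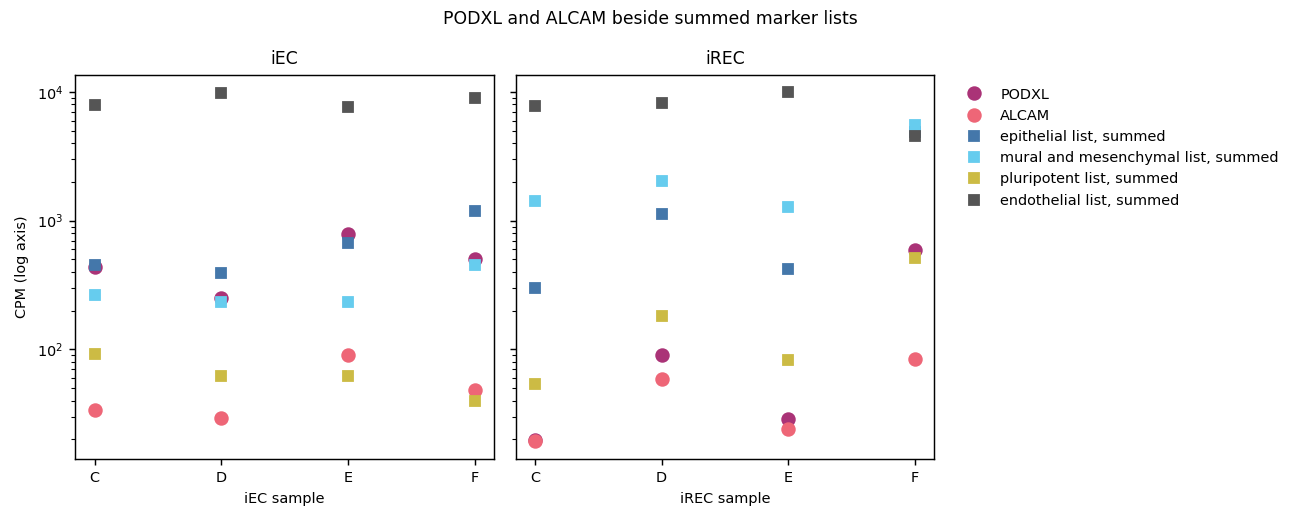
PODXL and ALCAM (circles) beside the summed levels of 4 marker lists (squares) in each sample, in CPM on a log axis, iEC on the left and iREC on the right. In iREC F, PODXL (592 CPM), the epithelial sum (4920 CPM) and the mural sum (5550 CPM) are above, and the endothelial sum (4570 CPM) below, the other iREC samples.

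The selectins were both near the floor in iEC and higher in iREC. SELP (ENSG00000174175, chromosome 1, 169588849 to 169630193, minus strand) encodes P-selectin, which endothelium stores in Weibel-Palade bodies and shows on its surface within minutes of stimulation. Its counts were 1, 12, 0 and 6 in iEC and 607, 978, 1322 and 327 in iREC. In CPM that is at most 0.757 in iEC and 39.6, 69.6, 80.4 and 21.3 in iREC, so the groups lay far apart. Its log2 fold change was 7.39 ± 0.76 (SE; edgeR adjusted p 0.000216), which rests on 19 reads in all of iEC. All 16 alternatives called it, with log2 fold changes from 6.95 to 8.35.

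SELE (ENSG00000007908, chromosome 1, 169722641 to 169764705, minus strand) encodes E-selectin, the rolling receptor that cytokines induce. It had 1, 11, 2 and 23 counts in iEC and 59, 151, 221 and 75 counts in iREC. That is 0.0649 to 1.64 CPM against 3.85 to 13.4 CPM, low in both groups and without overlap. The log2 fold change of SELE was 3.72 ± 0.83 (SE; edgeR adjusted p 0.0103), with 37 reads in all of iEC. A long noncoding RNA on the same strand, AL021940.1, shares 266 exonic bases with it and was not analysed here. It was called in all 16 alternatives, at adjusted p up to 0.031. Per length, SELP exceeded SELE by 5.73-fold to 13.5-fold in the iREC samples (ratio of deposited FPKM), whereas in iEC the ratio ran from 0 to 1.43 on few reads.

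Both selectins sit on chromosome 1, with 92448 bases from the end of SELP to the start of SELE. Of the coding genes within 100 kb, C1orf112, METTL18 and SCYL3 did not pass the test. They had log2 fold changes of 0.46, 0.29 and 0.48 with edgeR adjusted p of 0.445, 0.39 and 0.186. F5, the coagulation factor gene beside SELP, was below the filter, at 0.0357 CPM in iEC and 0.173 CPM in iREC. C1orf112 lies on the opposite strand across SELE but shares no exonic base (0) with it.

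SELP is also a platelet gene, so blood markers are given beside it. PTPRC, which encodes CD45, had no count in any iEC sample and 0.791 to 2.74 CPM in iREC, where SELP was 21.3 to 80.4 CPM. The platelet gene ITGA2B was 0.357 to 1.12 CPM in iEC and 0.261 to 0.73 CPM in iREC. CD14, LYZ, SPI1, ITGAM and CD68 were each at most 0.252 CPM in every sample, and CSF1R at most 0.913 CPM. CD33 was 0.143 to 0.315 CPM in iEC and 0.427 to 1.57 CPM in iREC, without overlap. CORO1A was 1.04 to 1.77 CPM in iEC and 0.73 to 3.07 CPM in iREC. The summed level of 10 leukocyte genes was 101 to 124 CPM in iEC and 34.0 to 65.6 CPM in iREC. LAPTM5 made up most of it, at 98.4 to 123 CPM in iEC and 28.3 to 62.2 CPM in iREC. The part of blood cells in the SELP level was not tested.

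Of the immunoglobulin ligands of leukocyte integrins, ICAM2, the constitutive one, was called lower in iREC. ICAM1 had a negative log2 fold change too, but did not pass the test over all samples, nor did the low VCAM1. Differences among these genes were not tested. ICAM2 (ENSG00000108622, chromosome 17, 64002594 to 64020634, minus strand) was 115, 135, 167 and 169 CPM in iEC and 70.9, 66.4, 81.2 and 33.1 CPM in iREC. Every iREC sample lay below every iEC sample. The log2 fold change was -1.22 ± 0.26 (SE; edgeR adjusted p 0.00874), and ICAM2 was called in all 16 alternatives. PRR29, on the opposite strand, shares 869 exonic bases with ICAM2 and was also lower in iREC, at 118 ± 12.3 against 34.3 ± 13.4 CPM (SD, n = 4; edgeR adjusted p 0.00141). Whether the counting used strand is not given in the sources used here, so reads of these genes cannot be told apart and both values are uncertain.

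ICAM1 (ENSG00000090339, chromosome 19, 10270835 to 10286615, plus strand), the ligand of the integrins LFA-1 and Mac-1, was 83.8, 89.8, 88.6 and 188 CPM in iEC. In iREC it was 28.6, 56.5, 61.9 and 91.1 CPM. Only iREC F reached into the iEC range. The log2 fold change was -0.92 ± 0.37 (SE; edgeR adjusted p 0.102). Without iREC F it was -1.20 and the edgeR adjusted p 0.0392, and without iEC F it was -0.55 with an adjusted p of 0.251. With the replicate letter as a block it was -0.94 and the edgeR adjusted p 0.0174. By the ratio of deposited FPKM, ICAM2 exceeded ICAM1 by 1.02-fold to 2.15-fold in iEC and by 1.34-fold to 2.83-fold in iREC C, D and E, and was 0.415 of it in iREC F.

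VCAM1 (ENSG00000162692, chromosome 1, 100719742 to 100739045, plus strand), the ligand of the integrin VLA-4, was low throughout. Its counts were 2, 12, 15 and 118 in iEC and 67, 149, 245 and 58 in iREC. In CPM these are 0.13, 0.757, 0.886 and 8.43 against 4.37, 10.6, 14.9 and 3.78. The 3 iEC samples C, D and E were below all iREC samples, while iEC F lay among them. Over all samples VCAM1 did not pass the test, at 1.74 ± 0.99 (SE) on the log2 scale and an edgeR adjusted p of 0.234. Leaving out iEC F raised that value to 3.80, and its edgeR adjusted p was 0.00933. The other 15 alternatives gave no call.

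MCAM (ENSG00000076706, chromosome 11, 119308529 to 119321521, minus strand) encodes CD146, an adhesion protein of endothelial junctions and of pericytes, and it was lower in iREC. Its level was 1698, 1826, 1887 and 2257 CPM in iEC and 1362, 796, 921 and 654 CPM in iREC. The groups did not overlap. The log2 fold change was -1.04 ± 0.23 (SE), a 2.05-fold difference (edgeR adjusted p 0.00923), and all 16 alternatives called it. CBL, on the opposite strand, shares 509 exonic bases with MCAM and stood at 159 ± 32.5 CPM in iEC against 144 ± 11.1 CPM in iREC (SD, n = 4; edgeR adjusted p 0.562). Pericytes also carry CD146. Of the 12 mural and mesenchymal marker genes 10 were tested, with a median log2 fold change of 2.62. Among those, 4 were called higher in iREC (TAGLN, LUM, MYH11 and POSTN) and 1 lower (RGS5). LUM and MYH11 passed the filter on low counts only through iREC. Over all tested genes 13.2% were called higher and 11.7% lower. The sum of all 12 marker genes was 232 to 449 CPM in iEC and 1280 to 5550 CPM in iREC. The pericyte receptor gene PDGFRB was 2.14 to 17.6 CPM in iEC and 4.70 to 127 CPM in iREC and was not called. The part of these cells in the MCAM level was not tested.

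**Figure D4:**
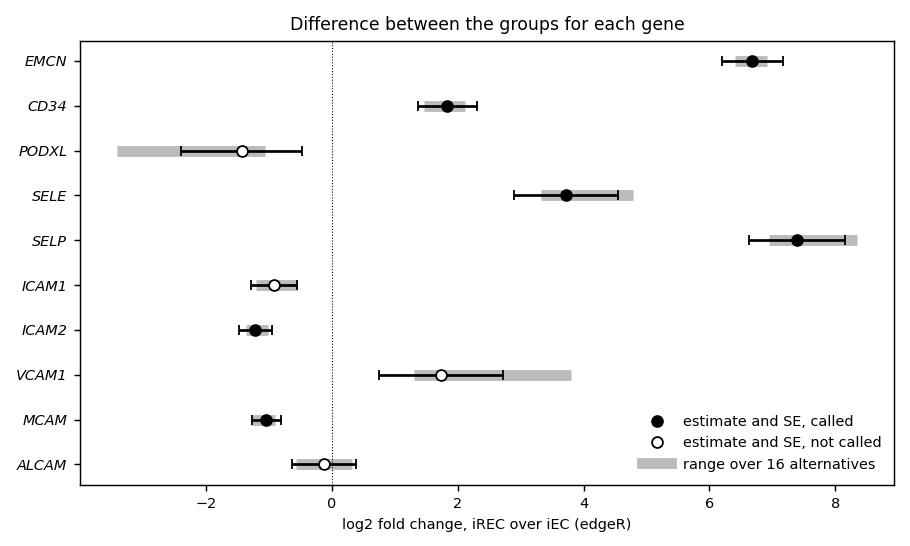
Log2 fold change of iREC over iEC for each gene (horizontal axis; points with SE from edgeR, filled where called), with grey bars for the range over 16 alternatives. The grey bars of PODXL (-3.41 to -1.06) and VCAM1 (1.31 to 3.80) are wide, and that of ALCAM crosses 0.

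Ordered by level per length (deposited FPKM, mean ± SD over 4 samples), MCAM led in both groups, at 257 ± 38.3 in iEC and 124 ± 40.4 in iREC. In iEC it was followed by PODXL at 71.6 ± 32.4, ICAM2 at 44.9 ± 8.79, ICAM1 at 30.5 ± 14.5, CD34 at 12.2 ± 6.10 and ALCAM at 7.04 ± 3.90. EMCN, VCAM1, SELE and SELP, all under 1 FPKM on average, closed that order. The range of MCAM in iEC was clear of PODXL, that of ICAM1 clear of CD34 and that of ALCAM clear of EMCN; all other neighbours overlapped. The iREC order was MCAM, EMCN (80.9 ± 28.8), CD34 (43.2 ± 21.9), PODXL (26.5 ± 39.9), ICAM2 (19.1 ± 6.23), ICAM1 (15.9 ± 6.93), SELP (14.9 ± 7.58), ALCAM (6.41 ± 4.22), SELE (1.77 ± 0.982) and VCAM1 (1.37 ± 0.858). There every gene overlapped the next. MCAM made up 54.9% to 67.7% of the summed FPKM of the 10 genes in iEC and 30.7% to 46.5% in iREC.

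Set against the endothelial marker sum, a measure chosen after the values were seen, the levels within iREC drew together for some genes and apart for others. The highest iREC sample exceeded the lowest by 2.74-fold for EMCN in CPM and by 1.34-fold per endothelial sum, by 2.45-fold and 1.26-fold for ICAM2, and by 3.77-fold and 1.82-fold for SELP. For ICAM1 the spread went from 3.19-fold to 5.41-fold, for ALCAM from 4.30-fold to 7.62-fold and for PODXL from 30.0-fold to 51.0-fold. On this scale the 6 called genes still did not overlap between the groups. The share of all tested genes without overlap was 29.1% in CPM and was not computed on this scale. The means of EMCN differed 108-fold and those of CD34 3.95-fold, iREC over iEC. The endothelial list moved in part with the groups itself, with 3 of its 12 genes called higher and 5 called lower in iREC. Over all tested genes these shares were 13.2% and 11.7%.

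The other genes of leukocyte adhesion were taken from 11 lists. Of their 109 genes, 94 were tested and 38 were called, 19 higher and 19 lower in iREC. That is 40.4% against 25.0% of all genes tested, with a median log2 fold change of 0.07. Some called genes passed the filter on low counts only through the group where they were high. These were PROM1, CD6 and MADCAM1 through iREC, and JAM2 and CSF3 through iEC. Of the ligands that selectins bind and the enzymes that glycosylate them, 4 of 9 tested were called, 2 in each direction (median 0.03). CD44, a hyaluronan receptor that also carries E-selectin ligands, fell to 51.1 ± 15.2 CPM from 300 ± 106.5 CPM in iEC (SD, n = 4), with an edgeR adjusted p of 0.000458. GCNT1, which builds the branched sugar core of selectin ligands, was 1.53 ± 0.724 CPM in iEC and rose to 18.8 ± 5.94 CPM (edgeR adjusted p 0.000211). The sialyltransferase ST3GAL6 fell from 34.8 ± 7.92 to 18.6 ± 6.64 CPM (adjusted p 0.0421). SELPLG, which encodes the P-selectin ligand PSGL-1, was the other rise and stayed low, at 1.80 ± 0.841 and 6.34 ± 1.28 CPM.

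Among other sialomucins and mucin-type proteins, 4 of 9 tested were called, 3 higher and 1 lower (median 0.56), against 25.0% of all tested genes. CD24, a small mucin-like P-selectin ligand whose near-identical copies elsewhere in the genome make its count uncertain, was 5.61 to 11.8 CPM in iEC and 229 to 446 CPM in iREC (log2 fold change 5.22 ± 0.32, SE; edgeR adjusted p 1.75e-05). PROM1 rose from 0.537 ± 0.271 to 16.8 ± 18.3 CPM, with 3.66, 12.5, 7.18 and 43.7 CPM in iREC, and CD248 from 11.4 ± 2.64 to 50.02 ± 20.3 CPM. THBD, which encodes thrombomodulin, fell from 317 ± 67.5 to 201 ± 49.4 CPM, and the endosomal sialomucin gene CD164 was 349 ± 31.9 and 344 ± 39.6 CPM (SD, n = 4; edgeR adjusted p 0.932). Of the 8 adaptors that tie sialomucin tails to actin, 3 were called (median 0.13). SLC9A3R2, which encodes the podocalyxin-binding adaptor NHERF2, fell from 178 ± 31.3 to 61.6 ± 11.2 CPM and MSN (moesin) from 1683 ± 306 to 984 ± 211 CPM, while RDX (radixin) rose from 176 ± 13.1 to 304 ± 47.0 CPM.

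Of the further immunoglobulin-type adhesion proteins, 4 of 9 tested were called, all higher (median 0.54), where 13.2% of all tested genes were called higher. L1CAM rose from 18.7 ± 10.5 to 111 ± 11.1 CPM, BCAM, a laminin receptor, from 6.78 ± 3.03 to 29.4 ± 7.78 CPM and NECTIN2 from 216 ± 36.0 to 313 ± 40.9 CPM (SD, n = 4). Their edgeR adjusted p were 0.00078, 0.00314 and 0.0302. MADCAM1, the gut addressin gene, was called but low, at 0.872 ± 0.557 and 2.78 ± 1.16 CPM. ICAM3, of the same list, went the other way but was below the filter. It was 0.572 to 2.14 CPM in iEC and at most 0.243 CPM in iREC, without overlap. The number called in this list was 3 with no filter and 5 with DESeq2. Of 8 junction genes of transmigration 4 were called, all lower (median -0.73), where 11.7% of all tested genes were called lower. They were PECAM1 (log2 fold change -1.57), ESAM (-0.94), CDH5 (-0.76) and the low JAM2 (-1.91), while CD99 (-0.47), F11R (-0.02), JAM3 (-0.69) and CD99L2 (0.24) were not called.

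The genes upstream and beside the inducible adhesion molecules are the cytokine receptors, the NF-kappaB genes and the chemokines. Beside the counts of these lists stand the shares of all tested genes, 25.0% called, 13.2% as higher and 11.7% as lower. Of 10 receptors 7 were called, 5 higher and 2 lower (median 0.77). IL1R1, the interleukin 1 receptor, rose from 5.99 ± 4.41 to 87.1 ± 22.5 CPM, IL6ST from 364 ± 37.7 to 1774 ± 596 CPM and TNFRSF1B from 42.8 ± 31.1 to 206 ± 43.6 CPM (SD, n = 4). Their edgeR adjusted p were 0.00051, 0.000264 and 0.00832. IL1RAP and IL13RA1 were the other rises, and IL4R and IFNGR2 fell, by 0.66 and 0.48 on the log2 scale. Of 12 NF-kappaB subunits and feedback genes 2 were called by edgeR and 4 by DESeq2 (median -0.17 by edgeR). TNFAIP3, a feedback inhibitor, rose from 13.5 ± 3.91 to 32.8 ± 10.4 CPM and NFKBIE fell from 34.5 ± 4.26 to 17.4 ± 2.09 CPM. NFKB1 was 59.1 ± 9.65 and 56.3 ± 2.84 CPM and NFKBIA 48.2 ± 16.7 and 56.6 ± 9.11 CPM (edgeR adjusted p 0.745 and 0.502). Of 8 tested chemokine and cytokine genes 1 was called higher and 3 lower (median 0.45). That median falls in a gap between CXCL3 (-0.41) and IL6 (1.31), neither of them called. CXCL2 rose from 14.3 ± 8.59 to 58.6 ± 15.2 CPM, whereas CXCL8 fell from 506 ± 268 to 50.8 ± 34.2 CPM and CXCL1 from 118 ± 36.3 to 46.8 ± 12.2 CPM. CSF3, the other fall, was 1.39 to 7.62 CPM in iEC and at most 0.131 CPM in iREC.

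P-selectin's storage organelle showed no common direction. Of 9 Weibel-Palade body genes 4 were called, 1 higher (SYTL4) and 3 lower, ANGPT2 and EXOC2 among them (median -0.39). For all tested genes the share called was 25.0%. ANGPT2, which is stored with VWF, fell to 26.4 ± 5.06 CPM from 1774 ± 234 CPM in iEC (SD, n = 4), with an edgeR adjusted p of 1.49e-06. VWF itself was 178 ± 69.7 and 461 ± 216 CPM and was not called (edgeR adjusted p 0.0506). Of 7 tested sheddases and tetraspanins, CD81 alone was called, lower (-0.38 on the log2 scale; adjusted p 0.0446), a call that was lost with DESeq2 size factors. ADAM17 and ADAM10, which cut several of these adhesion molecules from the surface, had log2 fold changes of 0.0070 ± 0.11 and 0.10 ± 0.14 (SE; edgeR adjusted p 0.971 and 0.616). Of 5 tested leukocyte counter-receptors by edgeR, CD6, the ALCAM ligand of T cells, was called at a low level, 0.764 ± 0.555 and 5.70 ± 2.35 CPM (edgeR adjusted p 0.00487), and DESeq2 called 4.

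**Figure D5:**
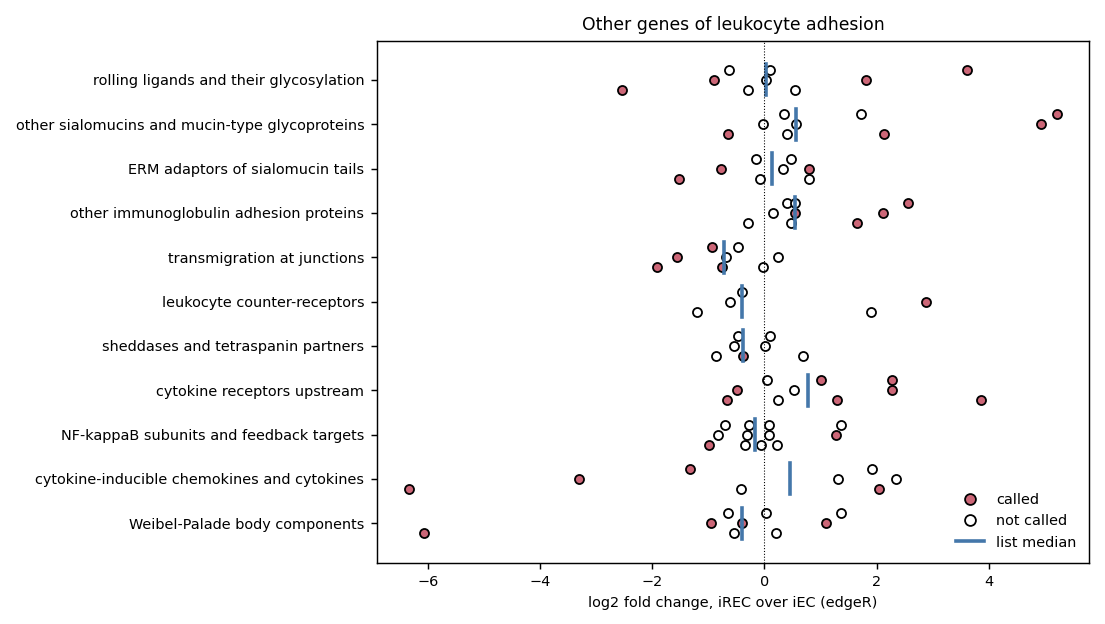
Log2 fold change of iREC over iEC (horizontal axis) for the tested genes of 11 lists around leukocyte adhesion, 1 point per gene, red where called by edgeR, with the list median as a blue bar. The called junction genes all lie to the left and the called immunoglobulin genes all to the right, while CSF3 and ANGPT2 are farthest to the left.

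The genes whose profile over the 8 samples was nearest to each member were ranked by the root mean square difference of log2 CPM, each gene centred on its own mean, among 10246 genes with at least 10 CPM in a group. These log2 CPM had a prior count of 2, which flattens levels near 0. For EMCN they included CLEC3B (0.52 log2 units) and C4BPB (0.58). Both were near 0 in iEC, at means of 0 and 0.0148 CPM against 13.7 and 22.4 CPM in iREC. Their edgeR log2 fold changes were 10.7 and 9.86, against 6.68 for EMCN, so the nearness rests in part on that floor. For CD34 they were ZNF608 (0.43), NR5A2 (0.46) and C17orf58 (0.48), for SELP PDK4 (0.47), H19 (0.51) and SLC7A8 (0.51), and for SELE THSD7A (0.51), MAN1C1 (0.52) and ZBTB16 (0.57). Those nearest to PODXL were VAT1L (0.51), ADAMTSL1 (0.54) and NAV3 (0.64). Smaller differences were found for ICAM1, with the plakoglobin gene JUP (0.13), TM7SF2 (0.20) and SNPH (0.28). MCAM had CSRNP1 (0.14), CTSL (0.16) and MOB3A (0.17), and ICAM2 had CHST7 (0.17), HOXB4 (0.20) and FEZ1 (0.20). The measure also grows with how far a gene's level varies, so it does not rank fit between members. ALCAM was nearest to RALGPS2 (0.30), SGMS2 (0.33) and DUSP1 (0.37). VCAM1 had the largest differences, with the interferon-inducible gene GBP2 (0.80), UAP1L1 (0.90) and UBA7 (0.92) the nearest.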

How the data were processed

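Messenger RNA was selected with poly-T beads and dUTP went into the second strand, per the labels' protocols. The submitters' processing notes name fastp, HISAT2 2.0.5 and the build hg38; the counting program is not given in the sources used here. The deposited table gives unnormalized counts of reads for each gene, per the file headers, and these counts entered every test. The authors also deposited FPKM per sample, used here to compare levels between genes, a normalized signal (counts divided by 1 factor per sample), and a log2 fold change with p-values whose test the file headers do not state. The authors' deposited table lists adjusted p-values that are not used as results. Identifier, start and end agreed for all 30386 genes with GENCODE release 29 (GRCh38).

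Genes were kept by filterByExpr of edgeR 4.0.16 (15330 genes), scaled by TMM and compared by the quasi-likelihood F-test with group as the only term, on all 8 samples. Adjustment followed Benjamini and Hochberg over all tested genes and a gene was called under 0.05. SE values came from the coefficient and the F statistic. CPM are on TMM-scaled library totals. Replicates were distinct libraries (chi-square per degree of freedom 18.2 to 110 between replicates of a group). The members, lists and tests were chosen with earlier results of these data known. Of the lists, up to 3 called genes in each direction with at least 10 CPM in a group are named, with the nearest profiles, except for a few genes not reported here; SELPLG, MADCAM1, JAM2, CSF3, CD6, CD164, IL1RAP, IL13RA1, VWF, ADAM10, ADAM17 and the genes not called lie outside that rule and were picked with their values in view. The settings varied were DESeq2 size factors, library totals, upper quartile scaling, no filter, one that asked for 1 CPM throughout a group and a mean count of 50, DESeq2 1.42.0, limma-voom (limma 3.58.1), the replicate letter as a block, and each sample left out.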

Additional observations from a re-analysis of the deposited data

Results flagged for a closer look

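ICAM1 in iEC F was 7.56 log2 CPM, far from the other iEC samples at 6.39 to 6.49. The gap was 0.915 of the whole range of the 4 samples, above the share that Dixon's test allows. Such a gap was looked for in 22 sets of 4 values and found in 1, where chance gives about 1 in 20, or 1.1.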

How the results depend on the processing

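The same 6 genes were called under each of the 8 alternatives with all samples and in each of the 8 fits without a sample. Further calls were ICAM1 under the replicate block, VCAM1 without iEC F, and PODXL and ICAM1 without iREC F. The count was 6 to 8 in the fits without a sample, and 7 with the replicate block. Over all genes the calls numbered 3829, from 2660 to 4214 in the fits without a sample, 3334 with the replicate block and 4991 with DESeq2. With the block ICAM1 had a log2 fold change of -0.94 (edgeR adjusted p 0.0174). Deviations from the group means correlated across genes at 0.168, -0.079, 0.029 and 0.25 for C, D, E and F. Not every sample correlated best with its own letter. Such values cannot decide whether the letters pair the samples, and the labels do not say. ALCAM ran from -0.57 (without iREC F) to 0.32 in the fits without a sample. It changed sign without iEC E (to 0.32), without iREC C (to 0.13) and without iREC E (to 0.094), and the cause was not tested. List counts that moved by over 1.5 times were those of the counter-receptors (1 by edgeR; 2 with no filter, 2 with limma-voom, 4 with DESeq2), the sheddases and tetraspanins (1; 0 with DESeq2 size factors, 2 with DESeq2) and the NF-kappaB genes (2; 4 with DESeq2). Depth limits SELE, SELP and VCAM1 in iEC, which rest on 37, 19 and 147 reads over 4 samples.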

Other observations

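The cytokine-inducible adhesion genes were all highest, within iEC, in sample F. VCAM1 was 8.43 CPM there against 0.13 to 0.886 in the other iEC samples, SELE 1.64 against 0.0649 to 0.694 and ICAM1 188 against 83.8 to 89.8. The constitutive ICAM2 (169 CPM against 115 to 167) and MCAM (2257 CPM against 1698 to 1887) were also highest in iEC F. EMCN, CD34, PODXL, SELP and ALCAM were highest in other iEC samples. Among the chemokine, cytokine and NF-kappaB genes, CCL2 was 22.9 CPM in iEC F against 1.06 to 10.2 in the others, IL6 4.86 against 0.189 to 1.30, NFKBIA 72.2 against 36.2 to 46.9, BIRC3 9.65 against 4.35 to 5.80, RELB 23.9 against 13.0 to 16.1 and TNIP1 225 against 139 to 150. Of the 12 NF-kappaB genes, 7 were highest in iEC F and 5 elsewhere (NFKB1, NFKB2, REL, TNFAIP3 and TRAF1), and NFKB1 (47.6 CPM) and REL (5.65 CPM) were at their lowest there. Of the 11 chemokine and cytokine genes, 4 were highest in iEC F and 7 elsewhere, CXCL8 and CXCL1 among the latter. SELP was 0.429 CPM there and 0.757 CPM in iEC D. The epithelial sum (1180 CPM against 391 to 674) and the mural sum (449 CPM against 232 to 264) were also highest in iEC F. These genes were picked after their values were seen, and the part of other cell types in them was not tested.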
